A study of Mus musculus with 9 samples.

Results

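The superoxide and nitric oxide systems of macrophages were followed through 7 genes: Cybb, Cyba, Ncf1, Ncf4 and Rac2 of the phagocyte NADPH oxidase, the voltage-gated proton channel Hvcn1, and the inducible nitric oxide synthase Nos2. The genes were taken by symbol from the deposited FPKM table (fragments by transcript length and library size), each matched 1 row, and they are 7 of its 46078 genes. The libraries came from C57BL/6J mice, an inbred strain, and from 3 kinds of long-term culture, with 3 libraries each. BMM were macrophages of bone marrow, for which the labels describe no medium. FLM_M were derived from fetal liver of gestational days 15 to 19 and kept in 20% fetal bovine serum and 30% L-cell supernatant, which supplies the macrophage growth factor M-CSF. The FLM_G cells were derived from the same source and kept in 10% fetal bovine serum and 30 ng/ml recombinant mouse GM-CSF (granulocyte-macrophage colony-stimulating factor). All cells had been cultured for at least 8 weeks. The labels name no microbial or interferon treatment. Each culture was seeded into 3 wells on the day before harvest, and no label says that the wells held separate animals or cultures. The p-values therefore rest on a spread among wells that may be no more than technical. In bulk RNA, fewer cells of a type and less RNA per cell cannot be told apart.

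The phagocyte oxidase makes superoxide by moving electrons from NADPH across a membrane to oxygen. Its core is a heterodimer of gp91phox (Cybb), which carries the haems and the flavin, and p22phox (Cyba), which stabilizes it. In resting cells the regulators p47phox (Ncf1) and p40phox (Ncf4) stay in the cytosol, and on stimulation they move to the membrane together with the GTPase Rac2 or Rac1. Each electron leaves a positive charge behind, and the channel HVCN1 lets protons follow, which keeps the enzyme running. NOS2 makes nitric oxide from arginine and is induced in mouse macrophages by interferon gamma and bacterial products. PU.1 (Spi1) and the interferon regulatory factors IRF1 and IRF8 are known to bind promoters of oxidase genes.

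RefSeq promoter sequences (GRCm38.p6) were at hand for 3 of the 7 genes, Cybb, Cyba and Ncf1. They are shown because the first pair forms the membrane heterodimer and Ncf1 codes for its organizer, and because these factors were themselves measured here. Each runs 5′ to 3′ on the minus strand, from 250 bases before the RefSeq start to 30 after it. Capitals mark matches on either strand to 3 patterns, which can overlap: GAGGAA (PU.1 core), GGAA and GAAA with 2 bases between (ETS and IRF composite), and GAAA repeated with 2 bases between (core of the interferon-stimulated response element, ISRE).
Cybb: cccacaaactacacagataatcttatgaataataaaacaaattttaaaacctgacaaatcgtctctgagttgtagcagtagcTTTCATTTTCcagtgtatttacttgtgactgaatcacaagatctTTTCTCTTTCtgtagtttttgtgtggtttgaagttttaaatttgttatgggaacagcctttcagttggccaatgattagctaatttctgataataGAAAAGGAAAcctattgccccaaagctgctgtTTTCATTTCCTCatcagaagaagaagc
Cyba: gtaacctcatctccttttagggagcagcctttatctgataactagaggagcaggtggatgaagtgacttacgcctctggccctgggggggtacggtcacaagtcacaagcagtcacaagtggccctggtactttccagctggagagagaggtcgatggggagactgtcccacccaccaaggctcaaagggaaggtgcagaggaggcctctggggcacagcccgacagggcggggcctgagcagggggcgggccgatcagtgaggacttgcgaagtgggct
Ncf1: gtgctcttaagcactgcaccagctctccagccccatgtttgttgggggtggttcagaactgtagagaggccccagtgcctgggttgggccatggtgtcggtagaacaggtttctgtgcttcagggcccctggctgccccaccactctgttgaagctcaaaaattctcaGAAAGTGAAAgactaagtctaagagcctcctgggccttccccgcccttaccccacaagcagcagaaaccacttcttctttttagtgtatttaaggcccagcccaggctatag
The Cybb window is chrX:9469295-9469574, the Cyba window chr8:122432911-122433190 and the Ncf1 window chr5:134229596-134229875. The Cybb window held the composite GGAAATGAAA on the opposite strand at bases 4 to 13, counted from 1 at the RefSeq start, overlapping a GAGGAA at bases 10 to 15. It also held 3 matches to the ISRE core, at -168 to -159, -124 to -115 and -29 to -20, where -1 is the base before the start. The Ncf1 window held GAAAGTGAAA at -82 to -73. None of these 3 patterns was found in the Cyba window. All 3 windows held matches to a loose NF-kB pattern, GGG and CC with 5 bases between. A pattern for STAT factors, TTC and GAA with 3 bases between, was also searched and is not capitalized above. It matched the Ncf1 window at -88 to -80 and was not found in the Cybb and Cyba windows. Among 32851 RefSeq promoter windows of the same 280 bases, 26% held GAGGAA, 2.55% the composite, 3.28% the ISRE core and 48.9% the loose NF-kB pattern. The STAT pattern was held by 7.83%. A match is a description of the sequence and not a bound site.

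All levels below are FPKM scaled between libraries by TMM factors (0.8011 to 1.142). Differences are on the log2(FPKM + 1) scale with the standard error (SE) of a limma fit over all 9 libraries, and a gene is called at a Benjamini-Hochberg adjusted p under 0.05 over the 11952 genes tested. Genes entered the test with at least 1 FPKM in at least 3 libraries, which 6 of the 7 genes did and Nos2 did not. Pearson correlations over genes were 0.986 to 0.992 within a culture and 0.785 to 0.936 between cultures. All 8 macrophage markers were above 1 FPKM in every culture, but their levels differed. In FLM_G against BMM, Csf1r, Adgre1, Fcgr1 and Itgam were lower, Mertk, Lyz2 and Spi1 were higher, and Cd68 was not called. The dendritic cell marker Clec9a was at 2.45 FPKM in FLM_G, 0.11 in FLM_M and 0.0515 in BMM. The other dendritic cell markers listed did not have that order. Zbtb46 was highest in FLM_M, at 0.33 FPKM against 0.0658 in FLM_G. Ccr7 was highest in BMM, at 0.14 against 0.0267 in FLM_G, and Flt3 and Xcr1 were at 0 in FLM_G. Of 12 neutrophil markers, which matter because neutrophils are rich in this oxidase, Ly6g, Elane and Camp were at 0 in all libraries. The summed neutrophil markers were 5.69 to 6.79 FPKM in BMM, 9.53 to 12.4 in FLM_M and 69.2 to 74.7 in FLM_G, of which S100a8, also made by macrophages, was 53.3 ± 3.45 (SD, n = 3) in FLM_G. The part of those cells in the results was not tested. The B cell markers Cd79a and Pax5 were at 0 in all libraries, as were the mast cell markers Cpa3, Fcer1a and Ms4a2.

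Across the cultures RNA of the membrane heterodimer and the proton channel was highest in FLM_G, that of p40phox was highest in FLM_M, and Nos2 was near 0 everywhere. Between FLM_M and BMM 3 of the 6 tested genes rose (Cybb, Ncf4, Rac2), Hvcn1 fell, and Cyba and Ncf1 were not called. Of all genes tested, 44.6% were called in that comparison, 22.7% higher and 21.9% lower. Between FLM_G and BMM all 6 were called, 5 higher and Ncf4 lower, against 68.0% of all genes (33.8% higher, 34.1% lower). The same split, 5 higher and Ncf4 lower, was found between FLM_G and FLM_M, against 70.6% of all genes (35.5% higher, 35.1% lower). Without scaling between libraries Ncf1 and Rac2 change sign in some of these comparisons and Cyba stays under 2-fold in both comparisons of FLM_G, as given below. At such shares a call alone says little, and size tells more: in FLM_M against BMM 7.03% of all genes were called at 2-fold or more (3.74% higher, 3.29% lower), and of the members Hvcn1 alone, lower. In FLM_G against BMM the share was 18.8% (9.84% higher, 8.91% lower), and Cybb, Cyba and Hvcn1 were that much higher. In FLM_G against FLM_M it was 21.4% (11.3% higher, 10.2% lower), and the same 3 members were that much higher and Ncf4 that much lower. The comparisons share libraries, so they do not bear on each other independently.

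**Figure D1:**
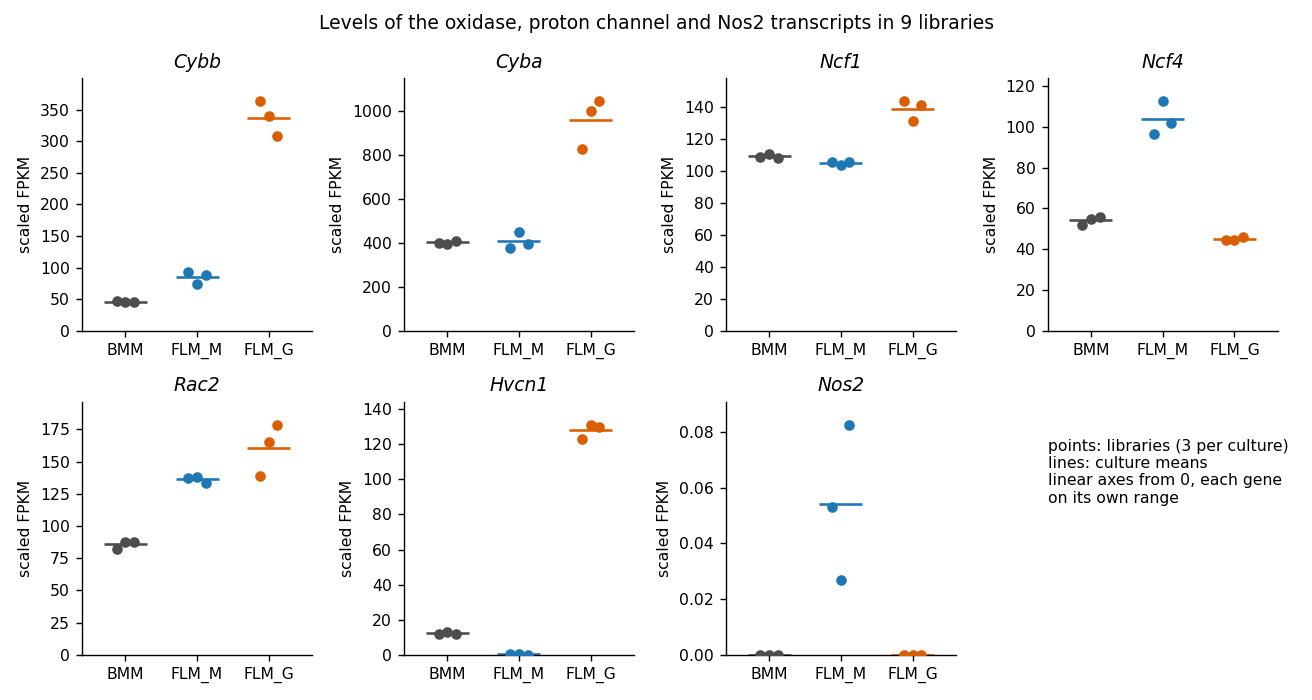
Scaled FPKM (y axis, linear from 0, a separate range for each gene) of the 7 genes in BMM, FLM_M and FLM_G; points are libraries and lines the means of 3. Cybb, Cyba, Ncf1 and Hvcn1 are highest in every FLM_G library, Ncf4 in every FLM_M library, and no Nos2 value exceeds 0.0826.

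The catalytic subunit gene Cybb (ENSMUSG00000015340, X, 9435252 to 9487771, minus strand, GRCm38) was at 46.7, 45.5 and 46.1 FPKM in the BMM libraries, at 92.8, 74.0 and 88.6 in FLM_M and at 363.6, 340.3 and 307.8 in FLM_G. The 3 cultures did not overlap and stood in the order BMM, FLM_M, FLM_G. Cybb was 1.85 times as high in FLM_M as in BMM by the means (log2 difference 0.86, SE 0.09, limma adjusted p = 7.39e-05). It was 7.31 times as high in FLM_G as in BMM (2.84, SE 0.09, adjusted p = 1.01e-08) and 3.96 times as high as in FLM_M (1.98, SE 0.09, adjusted p = 9.99e-08). Cybb is X-linked, and the sex of the cells moved with the comparison to BMM: Xist, the RNA of the inactive X, was at most 0.0044 FPKM in BMM and at 67.2 to 74.3 in FLM_M and 41.3 to 54.7 in FLM_G. The Y-linked Eif2s3y was at 10.6 to 11.3 in BMM and at 0 in all fetal liver libraries. The part of sex in the difference was not tested. Sex and tissue of origin moved together in every comparison with BMM, for all genes given here, and cannot be told apart. The labels also describe no medium for BMM. FLM_G and FLM_M share the female pattern.

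Cyba (ENSMUSG00000006519, chromosome 8, 122424776 to 122432930, minus strand) codes for the partner subunit and was the most abundant of the 7 transcripts in every library. It was at 399.6, 396.8 and 410.0 FPKM in BMM and at 378.4, 447.3 and 394.8 in FLM_M, ranges that overlapped (log2 difference 0.01, SE 0.10, limma adjusted p = 0.932). In FLM_G it was at 824.0, 998.6 and 1044, above every other library. That was a log2 difference of 1.24 (SE 0.10, adjusted p = 4.55e-06) from BMM and 1.23 (SE 0.10, adjusted p = 4.27e-06) from FLM_M. The size depends on the scaling, though both calls held: the differences were 0.82 (adjusted p = 3.71e-05) and 0.74 (adjusted p = 6.27e-05) without scaling, and 0.50 (adjusted p = 0.000113) and 0.34 (adjusted p = 0.00113) with quantile normalization. Cyba overlaps Gm20388 on the other strand. A neighbour on its own strand, 670 bases away, is Mvd, which codes for an enzyme of cholesterol synthesis. It was looked at after its values had been seen, and stood at 10.7 ± 0.6 FPKM in BMM, 4.72 ± 0.13 in FLM_M and 96.4 ± 6.4 in FLM_G.

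The heterodimer's genes were therefore not at a fixed ratio. Cybb FPKM was 11.7%, 11.5% and 11.3% of Cyba FPKM in the BMM libraries, 24.5%, 16.5% and 22.4% in FLM_M, and 44.1%, 34.1% and 29.5% in FLM_G. The ratio within a library does not depend on scaling between libraries, and the 3 cultures did not overlap in it. It was 1.82 times as high in FLM_M as in BMM, 3.09 times as high in FLM_G as in BMM and 1.7 times as high in FLM_G as in FLM_M. An exact two-sided permutation test gave p = 0.1 for each of these 3 comparisons (adjusted p = 0.1), the smallest value that 3 libraries against 3 allow, so the design cannot pass 0.05 here. By FPKM, which is per transcript length, Cyba was the more abundant of the pair in all 9 libraries.

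Ncf1 (ENSMUSG00000015950, chromosome 5, 134220053 to 134229625, minus strand), the gene of the organizer p47phox, varied least among the 5 oxidase genes. It was at 108.7, 110.8 and 108.1 FPKM in BMM, 105.7, 104.1 and 106.0 in FLM_M and 143.9, 131.6 and 141.5 in FLM_G. FLM_M lay just under BMM in every library, but the difference was not called (-0.05, SE 0.04, limma adjusted p = 0.373). FLM_G was called higher than BMM by 0.34 (SE 0.04, adjusted p = 0.000139) and higher than FLM_M by 0.40 (SE 0.04, adjusted p = 4.74e-05). Both calls rest on the scaling: in the FPKM as deposited, Ncf1 was 118.7, 120.7 and 116.6 in BMM and 118.2, 106.3 and 113.3 in FLM_G, and the differences were -0.08 (adjusted p = 0.17) and -0.09 (adjusted p = 0.12). With quantile normalization they were 0.03 (adjusted p = 0.697) and 0.04 (adjusted p = 0.592). Without scaling the median log2 difference of all genes was itself -0.34 for FLM_G against BMM and -0.39 against FLM_M, so the unscaled Ncf1 differences lay above it. The calls over all genes then divided into 2081 higher and 6775 lower in FLM_G than in BMM, against 4044 and 4081 with scaling. Against FLM_M they divided into 2218 and 7075 without scaling, and 4246 and 4195 with it.

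Ncf4 (ENSMUSG00000071715, chromosome 15, 78244801 to 78262580, plus strand) codes for p40phox, which binds the phosphoinositide PI3P on phagosomes. Its pattern was unlike that of the other oxidase genes. It was at 51.9, 54.9 and 56.0 FPKM in BMM, 96.2, 112.6 and 102.0 in FLM_M and 44.4, 44.6 and 46.1 in FLM_G. Every FLM_M library was above every other, and every FLM_G library below every BMM library. The difference was 0.92 (SE 0.06, limma adjusted p = 4.14e-06) for FLM_M against BMM, -0.26 (SE 0.06, adjusted p = 0.005) for FLM_G against BMM and -1.18 (SE 0.06, adjusted p = 2.53e-07) for FLM_G against FLM_M. Ncf4 was lower in FLM_G under every scaling tried, and against BMM the difference was -0.68 without scaling and -0.43 with quantile normalization.

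Cybc1, a chaperone of the heterodimer listed in the table under its older name BC017643, was described as a pathway gene and stood at 11.3 ± 0.3 FPKM in BMM, 15.2 ± 0.5 in FLM_M and 12.7 ± 0.2 in FLM_G (SD, n = 3). It was called higher in FLM_M than in BMM (0.40, limma adjusted p = 0.000126) and higher than in FLM_G, where the difference from FLM_M was -0.24 (adjusted p = 0.00127).

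Rac2 (ENSMUSG00000033220, chromosome 15, 78559167 to 78572783, minus strand) codes for the blood cell GTPase of the complex. It was at 82.2, 87.7 and 87.7 FPKM in BMM, 137.3, 137.9 and 133.4 in FLM_M and 138.4, 165.2 and 178.6 in FLM_G. Both fetal liver cultures were above BMM in every library, by 0.66 (SE 0.09, limma adjusted p = 0.000283) in FLM_M and by 0.89 (SE 0.09, adjusted p = 1.87e-05) in FLM_G, where it was 0.47 without scaling and 0.58 with quantile normalization. Between the fetal liver cultures the lowest FLM_G library, at 138.4, lay just above the highest FLM_M library, at 137.9. That difference of 0.23 (SE 0.09, adjusted p = 0.0384) was not called in 7 of the 9 fits that left out 1 library, where adjusted p reached 0.121, and it turned to -0.26 (adjusted p = 0.0153) without scaling and to -0.18 (adjusted p = 0.0574) with quantile normalization. The direction of Rac2 between the fetal liver cultures is therefore not settled by these data. Rac1, the widely expressed relative that can take its place, was at 114.2 ± 2.8 in BMM, 84.4 ± 5.4 in FLM_M and 108.4 ± 2.2 in FLM_G, lower in FLM_M than in BMM (-0.43, adjusted p = 0.0002). Rac1 was thus the higher of the pair in BMM and Rac2 the higher in both fetal liver cultures, by mean FPKM.

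**Figure D2:**
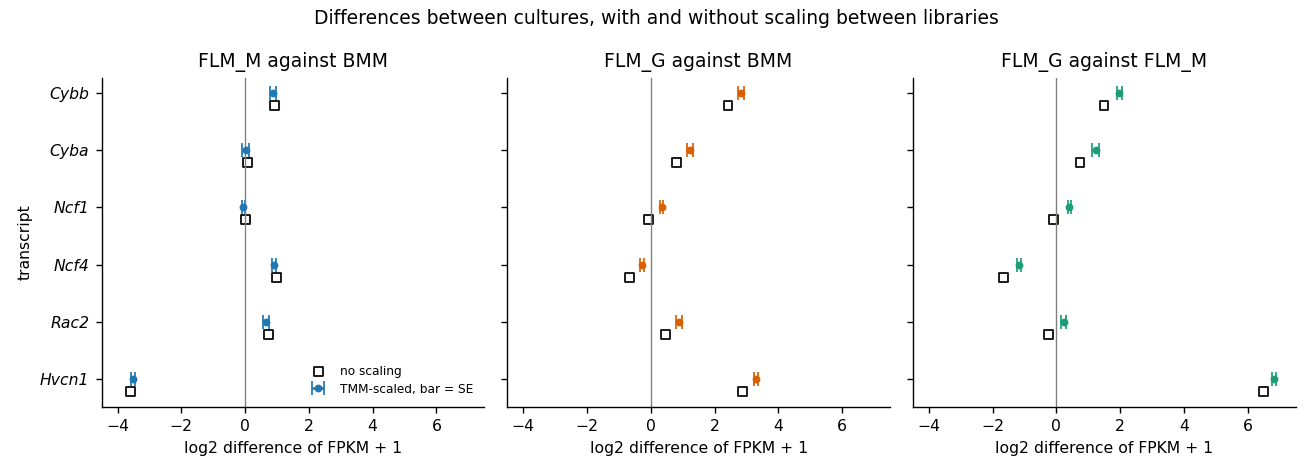
Log2 differences of FPKM + 1 (x axis) of the 6 tested transcripts in the 3 comparisons; filled points are the TMM-scaled values with SE bars and open squares the values without scaling. Squares lie left of the points in both FLM_G comparisons, which takes Ncf1 across 0 in both and Rac2 across 0 against FLM_M, while Hvcn1 spans -3.51 to 6.81.

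Ncf4 and Rac2 lie on the same chromosome with 296586 bases and 17 annotated genes between them, 14 of which are in the table and 6 of which passed the filter. These include Csf2rb, which codes for the beta chain shared by the receptors for GM-CSF, interleukin 3 and interleukin 5. They also include Csf2rb2, which codes for a beta chain of the interleukin 3 receptor alone. Csf2rb2 was at 26.4 ± 0.2 FPKM in BMM, 46.4 ± 3.7 in FLM_M and 80.6 ± 7.1 in FLM_G, and was called in all 3 comparisons in that order (limma adjusted p of 4.03e-05, 1.54e-07 and 1.63e-05). Reads of this gene and of its near copy Csf2rb, at 23.1 ± 0.4, 26.6 ± 4.1 and 200.8 ± 12.5, may have been divided between them. Of the other 4, Mpst, of sulfur metabolism, was higher in FLM_G than in BMM (1.04, adjusted p = 0.00355), and Kctd17 was not called there (-0.20, adjusted p = 0.509). Tst, also of sulfur metabolism, entered the test through FLM_G alone, at 3.05 to 4.62 FPKM against 0.72 to 0.99 in BMM, and C1qtnf6 through BMM alone, at 2.43 to 2.46 against a listed 0 in FLM_G. The filter set the direction of those last 2 genes.

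Summed over the 5 oxidase genes, FPKM came to 697.5 in BMM, 836.9 in FLM_M and 1638 in FLM_G by the means of the cultures. Cyba made up 57.6%, 48.6% and 58.4% of that sum in the same order. Cybb went from 6.61% in BMM to 10.2% in FLM_M and 20.6% in FLM_G, while Ncf4 went from 7.78% to 12.4% and 2.75%. Ncf1 took 15.7%, 12.6% and 8.49%, and Rac2 12.3%, 16.3% and 9.82%. These sums and shares are descriptions with no test of their own. The sums also depend on the scaling, which divided FPKM by 0.8011 to 0.8214 in FLM_G and by 1.079 to 1.142 in the other cultures. Cybb and Cyba together held a larger share in FLM_G than in either other culture.

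**Figure D3:**
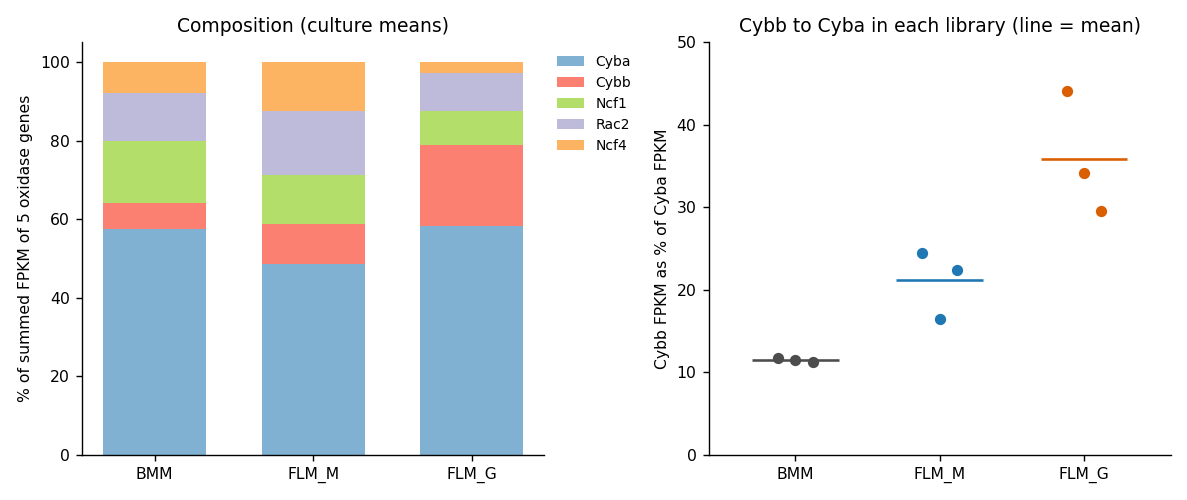
Left, share of each of the 5 oxidase genes in their summed FPKM (y axis, percent, culture means); right, Cybb FPKM as a percentage of Cyba FPKM in each library, with lines at the means. The Cybb share widens from 6.61% in BMM to 20.6% in FLM_G while that of Ncf4 narrows to 2.75%, and the Cybb to Cyba percentage runs from 11.3 to 44.1.

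Hvcn1 (ENSMUSG00000064267, chromosome 5, 122206804 to 122242297, plus strand), the proton channel gene, varied most. It was at 11.8, 12.7 and 11.9 FPKM in BMM, at 0.22, 0.14 and 0.089 in FLM_M and at 123.1, 131.2 and 130.0 in FLM_G. The cultures were far apart and the libraries of each close together, with FLM_M near 0. The log2 difference was -3.51 (SE 0.06, limma adjusted p = 9.41e-10) for FLM_M against BMM, 3.30 (SE 0.06, adjusted p = 2.52e-10) for FLM_G against BMM and 6.81 (SE 0.06, adjusted p = 4.99e-12) for FLM_G against FLM_M. Because 1 was added to each value, these understate the changes of a gene this low: by the plain means Hvcn1 was 80.5 times as high in BMM as in FLM_M. The corresponding ratio of FLM_G to BMM was 10.6. Both neutrophils and B cells are known to have this channel. Of the 12 neutrophil markers, Mmp8 had the same order as Hvcn1, at 2.94 ± 0.16 FPKM in BMM, 0.0316 ± 0.0102 in FLM_M and 18.7 ± 1.54 in FLM_G. By its means the low Cxcr2 had it too, at 0.0144, 0.0062 and 0.87. The other markers did not. S100a8 was lowest in BMM, at 1.94, 11.0 and 53.3. S100a9, Mpo and Prtn3 were at 0.97, 0.10 and 0.13 in BMM and at 0 in both fetal liver cultures. Ctsg, Ltf and Ngp were at 0.10, 0.0191 and 0.0696 in BMM and lower elsewhere, and Ly6g, Elane and Camp were at 0 throughout. B cell markers summed to 0.95 to 1.12 FPKM in BMM and to 0 in FLM_M and FLM_G. The part of such cells in the Hvcn1 levels was not tested.

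In the deposited count table, Hvcn1 had 99 to 181 counts in every library and showed no such pattern. Its 3′ part overlaps Tctn1 (chromosome 5, 122237848 to 122264460), a gene of cilia on the minus strand, over 1574 of its 3563 exon bases. The counts listed for Tctn1 were 1044, 1078 and 1095 in BMM, 28, 15 and 14 in FLM_M and 7198, 8286 and 8202 in FLM_G, whereas Tctn1 FPKM stayed between 0.77 and 1.37. The Tctn1 counts thus had the order and the spacing of the Hvcn1 FPKM. Another gene with high counts and low FPKM was found at Ncf1, whose exons share 408 bases with Gtf2ird2 on the other strand. Gtf2ird2 was listed at 2961, 3145 and 3241 counts in BMM, 3356, 2573 and 3140 in FLM_M and 2182, 2550 and 2682 in FLM_G. Its FPKM was 0.86 to 1.85. Unlike the scaled Ncf1 FPKM, these counts, which are not normalized, were not highest in FLM_G. Counts and FPKM come from the same reads, so this is no independent measurement of Hvcn1. It is the reason why counts are not used as the main measure here, and both partner genes were looked at after their values had been seen.

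**Figure D4:**
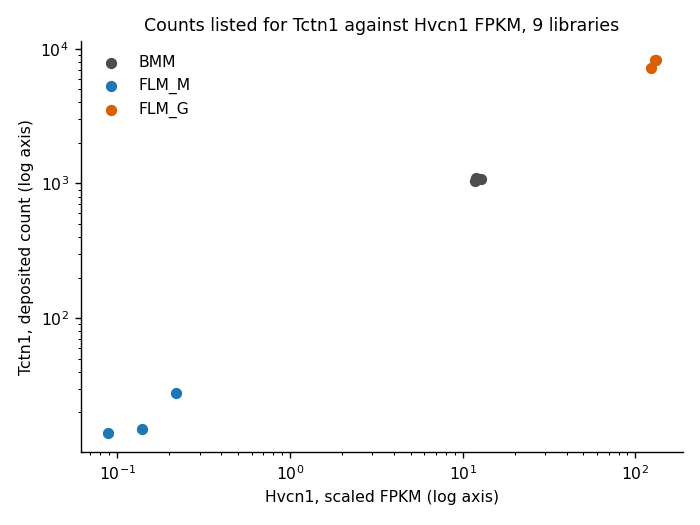
Counts listed for Tctn1 (y axis, log scale, not normalized) against scaled FPKM of Hvcn1 (x axis, log scale), which overlaps it on the other strand; each point is a library. The FLM_M libraries lie at 14 to 28 counts and 0.089 to 0.22 FPKM, and the FLM_G libraries at 7198 to 8286 counts and 123.1 to 131.2 FPKM.

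Nos2 (ENSMUSG00000020826, chromosome 11, 78920787 to 78960254, plus strand) was listed at 0 in all BMM and FLM_G libraries and at 0.0531, 0.0269 and 0.0826 FPKM in FLM_M. A listed 0 can be a failed estimate, the values of FLM_M are far under the filter of 1 FPKM, and neither a fold nor a test is given. By FPKM, inducible nitric oxide synthase RNA was at or near 0 in all 3 cultures. The other synthases were low too: Nos1 was at 0.34 ± 0.07 in FLM_M and under 0.01 on average elsewhere, and Nos3 was at 0.0263 FPKM or less on average.

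Around these members 6 sets of pathway genes were described, 90 genes of which 73 passed the filter. The numbers called were 14 higher and 18 lower in FLM_M against BMM, 23 and 32 in FLM_G against BMM, and 27 and 25 in FLM_G against FLM_M. Over all genes tested 44.6%, 68.0% and 70.6% were called, and the counts of the sets below are to be read against those shares. Without scaling the pathway genes called in FLM_G divided into 17 higher and 46 lower against BMM and 18 and 45 against FLM_M. The median absolute log2 difference of the 73 was 0.19, 0.52 and 0.46, beside 0.22, 0.39 and 0.44 over all genes tested.

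Among 14 oxidase homologs and partners, 6 passed the filter. In FLM_M against BMM 2 were higher and 1 lower, in FLM_G against BMM 2 and 1, and in FLM_G against FLM_M 2 and 3. Nox3, the oxidase catalytic subunit known from the inner ear, was listed at 0 in all BMM and FLM_G libraries and at 1.58 ± 0.13 FPKM in FLM_M, and since it entered the test through FLM_M alone its direction was set by the filter. Nox4, Noxa1, Duox1, Duox2 and Duoxa2 were at 0 in all libraries. The GTPase gene Rap1b was lower in FLM_G than in BMM (-0.63, limma adjusted p = 0.000497). Rap1a, also listed, was not called in any comparison, at 28.3 ± 2.31 FPKM in BMM, 27.0 ± 2.78 in FLM_M and 28.0 ± 7.09 in FLM_G.

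All 20 genes of oxidase activation were tested: 2 were higher and 6 lower in FLM_M against BMM, 4 and 11 in FLM_G against BMM, and 6 and 6 in FLM_G against FLM_M. Kinases went both ways in FLM_G against BMM: Prkca, Prkcb, Prkcd and Syk were higher, and Pak1, Pak2, Pik3cg and Pik3c3 lower. Pik3cd, Irak4 and Mapk14 were not called. Prkca entered the test through FLM_G alone, so the filter set its direction. Prkcd, a kinase of p47phox, was at 37.1 ± 1.9 FPKM in BMM, 29.6 ± 1.0 in FLM_M and 63.8 ± 2.5 in FLM_G, and Prkcb at 4.41 ± 0.04, 4.19 ± 0.22 and 10.3 ± 0.4. Syk, the kinase downstream of Fc receptors and Dectin-1, was at 21.4 ± 0.1, 14.3 ± 1.5 and 67.0 ± 1.7. The Rac effector kinase gene Pak1 and the exchange factor gene Vav3 were lower in FLM_G than in BMM (-0.99, adjusted p = 7.87e-07, and -1.53, adjusted p = 9.72e-06). Arhgdib, which holds Rac proteins in the cytosol, was at 321.3 ± 58.5, 280.4 ± 14.3 and 212.6 ± 45.2 and was called only in FLM_G against BMM (-0.60, limma adjusted p = 0.0143); the other differences had adjusted p of 0.443 and 0.0585.

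Of 19 genes of arginine and nitric oxide metabolism 14 were tested, with 4 higher and 3 lower in FLM_M against BMM, 6 and 6 in FLM_G against BMM, and 5 and 6 in FLM_G against FLM_M. Genes of arginine supply differed in direction, and Slc7a1, the other transporter listed, was lower in FLM_G than in BMM (-0.97, limma adjusted p = 4.68e-06). Slc7a2, the arginine transporter of activated macrophages, was at 0.53, 0.96 and 0.50 FPKM in BMM, 8.25, 6.77 and 16.9 in FLM_M and 25.9, 69.3 and 66.0 in FLM_G. The cultures did not overlap, but 1 library of each fetal liver culture stood well apart from the other pair (FLM_G against BMM 4.93, SE 0.41, limma adjusted p = 7.3e-06). Ass1, which makes arginine again from citrulline, rose from 11.1 ± 0.6 in BMM to 30.4 ± 0.6 in FLM_M and 92.7 ± 5.1 in FLM_G. The rival enzyme arginase 1 (Arg1) was at 1.53 ± 0.05, 0.53 ± 0.12 and 0.31 ± 0.16. Arg1 entered the test through BMM alone, so the filter set its direction in the comparisons with BMM. Genes of tetrahydrobiopterin, a cofactor of NOS enzymes, went different ways: Gch1 was highest in FLM_M, at 10.7 ± 0.4 against 6.79 ± 0.05 in BMM, Pts and Qdpr were higher in FLM_G than in BMM (1.31 and 1.27, limma adjusted p = 1.01e-06 and 5.56e-07), and Spr was lower (-0.64, adjusted p = 9.19e-06). Ddah2, whose product breaks down methylarginine inhibitors of NOS, fell from 6.20 ± 0.57 in BMM to 3.96 ± 0.12 in FLM_M and 0.51 ± 0.11 in FLM_G, and Nosip was lower in FLM_G than in FLM_M (-0.99, adjusted p = 0.000888).

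Of 15 transcription factor and interferon gamma signalling genes 14 were tested, with 3 higher and 2 lower in FLM_M against BMM, 4 and 5 in FLM_G against BMM, and 3 and 4 in FLM_G against FLM_M. Spi1, the gene of PU.1, was at 84.1, 89.2 and 87.2 FPKM in BMM, 88.2, 102.1 and 90.0 in FLM_M and 150.1, 171.6 and 189.6 in FLM_G. Like Cyba it did not differ by a call between BMM and FLM_M (limma adjusted p = 0.393) and was higher in every FLM_G library (0.96, adjusted p = 1.54e-05). Irf8 went the other way, at 15.3 ± 0.04, 12.8 ± 0.7 and 10.6 ± 0.3, with both fetal liver cultures below BMM (adjusted p = 0.00492 and 3.08e-05). Irf1 was at 5.55 ± 1.49, 9.55 ± 3.73 and 6.76 ± 2.66 and was not called in any comparison. Cebpb rose from 58.0 ± 4.6 in BMM to 367.3 ± 45.9 in FLM_G, with 65.1 ± 3.6 in FLM_M. The interferon gamma receptor gene Ifngr1 was highest in FLM_M, at 43.0 ± 3.2 against 32.0 ± 1.6 in BMM and 25.8 ± 0.9 in FLM_G. Runx1 was higher in FLM_G than in BMM (0.90, adjusted p = 6.97e-07) and Hif1a lower (-0.66, adjusted p = 0.00868).

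Of 12 superoxide, peroxide and haloperoxidase genes 9 were tested. In FLM_M against BMM 2 were higher and 4 lower, in FLM_G against BMM 5 and 4, and in FLM_G against FLM_M 7 and 1. Sod1, the cytosolic enzyme that turns superoxide into peroxide, was at 411.2 ± 11.8 FPKM in BMM and at 257.5 ± 21.1 and 257.5 ± 8.4 in FLM_M and FLM_G. Sod2, the mitochondrial enzyme of the same reaction, was instead lowest in BMM, at 16.8 ± 0.15, 26.8 ± 1.63 and 34.3 ± 0.75, and was called in all 3 comparisons (limma adjusted p of 1.2e-05, 2.53e-07 and 0.000266). Gpx4, Prdx5 and Prdx1, which remove peroxides, were highest in FLM_G, at 256.9 ± 17.1, 138.0 ± 14.0 and 462.6 ± 27.6. For Prdx1 and Sod2 the order depends on the scaling between libraries. In the unscaled FPKM, Prdx1 is higher in BMM than in FLM_G by the means, and Sod2 is higher in FLM_M than in FLM_G. Prdx6 was lowest there, at 7.04 ± 0.32 against 13.8 ± 3.1 in BMM. Myeloperoxidase (Mpo), which uses the oxidase's peroxide in neutrophils, was at 0.10 ± 0.06 in BMM and at 0 in the fetal liver cultures.

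All 10 genes of phagosome ion transport were tested, with 1 higher and 2 lower in FLM_M against BMM, 2 and 5 in FLM_G against BMM, and 4 and 5 in FLM_G against FLM_M. Like Hvcn1, another gene was far lower in FLM_M than in BMM: Slc11a1, the metal and proton transporter of phagosomes, was at 57.9 ± 3.7 FPKM in BMM and at 6.96 ± 0.47 in FLM_M; unlike Hvcn1 it was low in FLM_G too, at 4.76 ± 0.10. Slc9a9, a sodium and proton exchanger of endosomes, was at 10.4 ± 0.2, 11.0 ± 0.8 and 0.59 ± 0.09. Atp6v0d1, of the proton pump, was at 98.0 ± 1.2, 97.2 ± 3.2 and 192.6 ± 8.4. The chloride channel family genes Clic1 and Clic4 were lower in FLM_G than in BMM (-0.70, limma adjusted p = 6.91e-06, and -0.93, adjusted p = 6.81e-06), and Clcn7 was higher in FLM_M than in BMM (0.55, adjusted p = 0.0105).

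**Figure D5:**
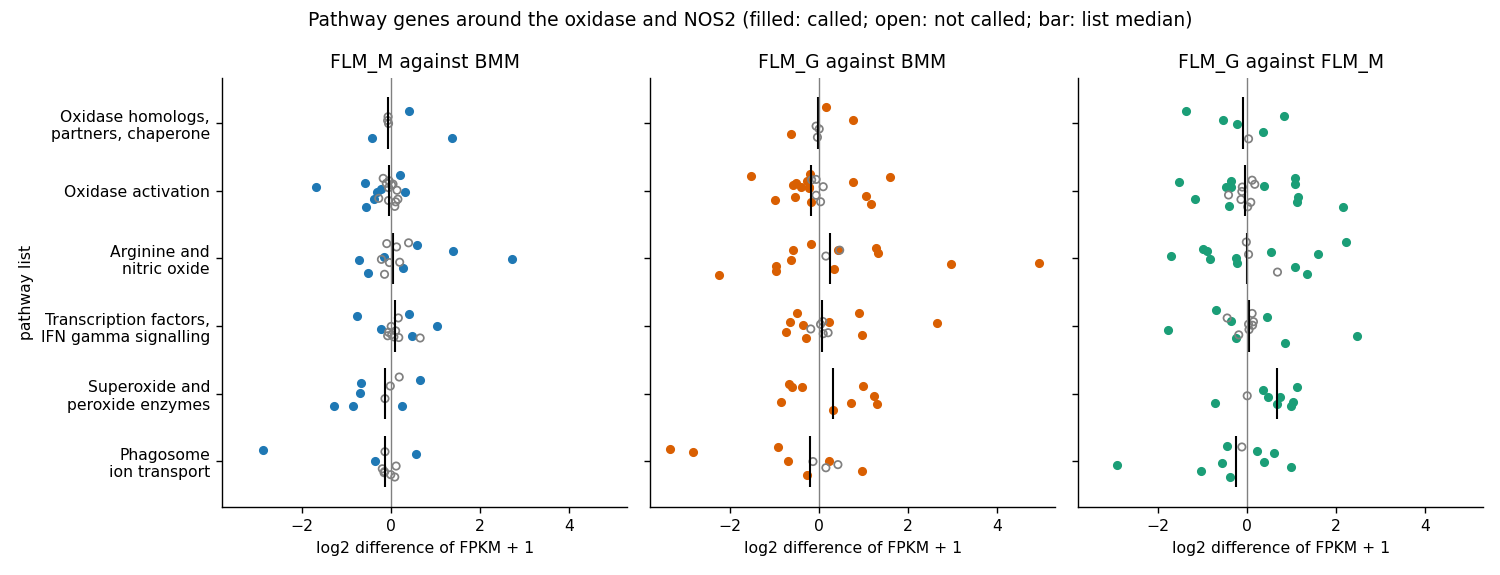
Log2 differences of FPKM + 1 (x axis) of the 73 tested pathway genes in 6 sets (y axis) for the 3 comparisons; filled points are called genes, open points uncalled ones, and black bars set medians. Points lie on both sides of 0 in every set, with Slc7a2 at 4.93 and Slc11a1 at -3.35 the farthest out in FLM_G against BMM.

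To see which other genes followed each member, 3400 tested genes with a mean of at least 20 FPKM in some culture were ranked by Pearson r of log2(FPKM + 1) with it over the 9 libraries. With 3 cultures of 3 libraries, r mostly reflects the 3 means. Nearest to Cybb were Lrp12 (0.9982), Tlr2 (0.9980) and Dapk1 (0.9975), and Tlr2, a receptor for bacterial lipopeptides, stood at 23.3 ± 0.8 FPKM in BMM, 36.6 ± 1.8 in FLM_M and 89.8 ± 2.1 in FLM_G. For Cyba they were Pcyt2 (0.9972), Arhgap9 (0.9967) and Cox8a (0.9959). Ncf1 was followed by Mgll (0.9900), listed near 0 in BMM and FLM_M, and by Nsdhl (0.9871) and Acat2 (0.9868) of sterol metabolism. Npy (0.9952), Gsdmd (0.9943) and the interferon-induced Bst2 (0.9935) were nearest to Ncf4. Mfsd5 (0.9891), Smpdl3b (0.9889) and Jund (0.9878) were nearest to Rac2. Hvcn1 was matched by the glycolytic gene Aldoc (0.9996), the serine synthesis gene Phgdh (0.9996) and the glycogen phosphorylase gene Pygl (0.9994). Each of these was under 0.2 FPKM on average in FLM_M, at 8.09, 8.45 and 10.7 in BMM and at 64.6, 84.1 and 82.5 in FLM_G. Among the members, r was 0.93 between Cybb and Cyba and -0.95 between Hvcn1 and Ncf4.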

How the data were processed

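RNA of 9 libraries (3 each of BMM, FLM_M and FLM_G) was sequenced for 101 cycles with a stranded mRNA kit, per the labels' protocols. The submitters' processing notes list HISAT2, StringTie, DESeq2, cutadapt, bcl2fastq and FastQC, and name both GRCm38 and mm10. Versions and roles are not given in the sources used here. The authors deposited a table of whole-number counts (782400 to 1170813 per library) and a table of FPKM. FPKM was the main measure because the counts of Tctn1 followed the FPKM of Hvcn1 on the opposite strand. Among the members this was seen at that pair only. No interval or floor from depth was computed. FPKM was scaled by unweighted TMM factors (edgeR 4.0.16), filtered (1 FPKM in 3 libraries), and fitted as log2(FPKM + 1) with limma 3.58.1 (trend, 6 residual degrees of freedom, R 4.3.3), a step tested on simulated data. Alternatives were other scalings, filters and pseudocounts, the replicate number as a block, edgeR and DESeq2 1.42.0 on the counts, and each library left out. Positions are GENCODE M21. The members and lists were chosen with earlier results of these data known. Many pathway genes were named for the largest called difference with at least 5 FPKM (up to 6 a set), and a few were fixed by name. Others, such as Sod1, Spr, Slc7a1, Nox3, Prkca, Pak2 and further kinases, were named outside that rule. Genes beside the pathway genes, such as Mvd, Tctn1, Gtf2ird2 and Mmp8, were chosen after their values were seen. Same-numbered libraries were checked for pairing, and none was found. Some genes of the lists are counted in them but not reported here by name.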

Additional observations from a re-analysis of the deposited data

How the results depend on the processing

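Of 144 differences of the 6 tested members under 8 alternatives on the FPKM (18 under each), 135 kept their direction and their side of the threshold, and of 162 with 1 library left out, 154 did. The exceptions concerned Rac2 between FLM_G and FLM_M, Ncf1, and the near-zero difference of Cyba. Without scaling, Ncf1 reversed in FLM_M against BMM (0.01), FLM_G against BMM (-0.08) and FLM_G against FLM_M (-0.087), and Rac2 in FLM_G against FLM_M (-0.26; -0.18 with quantile normalization). On the counts, Ncf1 reversed in FLM_M against BMM (0.16 by edgeR, 0.07 by DESeq2). Calls lost there by both tools were Ncf1 and Rac2 in FLM_G against FLM_M and Ncf1, Ncf4 and Hvcn1 in FLM_G against BMM (Ncf4 adjusted p = 0.373 and 0.493; Hvcn1 0.16, adjusted p = 0.672, and 0.11, adjusted p = 0.815). DESeq2 also lost Rac2 in FLM_M against BMM (adjusted p = 0.0926). Cyba in FLM_M against BMM ranged from -0.057 to 0.064 with 1 library left out and was negative without FLM_M replicate 2. The fits on the counts use the measure in which Tctn1 followed Hvcn1 on the other strand, as given above. The cause of the changes listed here was not tested.

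On the count table edgeR called 1300, 2458 and 2855 genes in FLM_M against BMM, FLM_G against BMM and FLM_G against FLM_M, and DESeq2 838, 2195 and 2628, against 5329, 8125 and 8441 with FPKM; edgeR tested 7490 genes and DESeq2 12694 to 13344, not 11952. Pathway genes called were 13, 20 and 23 with edgeR and 6, 21 and 19 with DESeq2, against 32, 55 and 52. Members called were 4, 3 and 4 with edgeR and 3, 3 and 4 with DESeq2, against 4, 6 and 6. With 1 library left out, members called numbered 4, 6 and 5 to 6.

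The replicate number as a block called 5140, 8018 and 8386 genes and 4, 6 and 6 members, and changed no call of a member. Same-numbered libraries deviated together at correlations of -0.077 to 0.09, so the numbers were not taken to pair libraries, and each library was closest to its own number in FLM_G against BMM only.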

Other observations

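Peroxide-removing genes outside those named above also differed between the cultures. Catalase (Cat) was at 127.8 ± 3.91 FPKM in BMM, 51.6 ± 1.84 in FLM_M and 82.7 ± 5.39 in FLM_G (SD, n = 3) and was called in all 3 comparisons by limma. Gpx1 was at 18.6 ± 1.72, 9.88 ± 1.96 and 14.0 ± 2.24 in the same order. Prdx2 was at 36.0 ± 1.16, 35.6 ± 2.96 and 59.9 ± 1.36, with no call between BMM and FLM_M. Arhgap15, which codes for a Rac GTPase-activating protein, was at 2.78 ± 0.10, 0.16 ± 0.0461 and 1.58 ± 0.25. Gpx1, Prdx2 and Arhgap15 were chosen after their values were seen.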
